A study of Mus musculus with 2 samples.

Results

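The 10 genes described here encode enzymes that remove superoxide and peroxides or keep the enzymes that do so in working order. They were taken by symbol from a fixed list (Prdx1, Prdx5, Gpx1, Gpx4, Sod1, Sod2, Txnrd1, Cat, Nqo1 and Srxn1), and all 10 were found among the 31053 genes of each count table. Superoxide dismutases (Sod1 in the cytosol, Sod2 in mitochondria) turn superoxide into hydrogen peroxide. Catalase (Cat), peroxiredoxins (Prdx1, Prdx5) and glutathione peroxidases (Gpx1, and Gpx4 for lipid peroxides) remove peroxides. Thioredoxin reductase 1 (Txnrd1) recharges the thioredoxin that peroxiredoxins use, sulfiredoxin (Srxn1) repairs over-oxidised peroxiredoxins, and Nqo1 reduces quinones. Transcription of Srxn1, Txnrd1, Prdx1 and Nqo1 is known to be induced by the factor NRF2 (gene Nfe2l2) through antioxidant response elements. The retina uses much oxygen, and its resident macrophages, the microglia, and its main glial cells, the Müller glia, both carry such enzymes.

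The cells came from mouse retinas (C57BL/6) and were sorted on the leukocyte protein CD45 after perfusion and enzymatic digestion. They were sequenced as 1 library labelled as an Igfbpl1 knockout (Igfbpl1-/-) and 1 labelled wildtype. Per the design text each genotype had 10 mice, 8 to 10 months old and sex-matched. The labels give neither the altered allele nor the mouse of a cell, so mice within a library cannot be told apart and there was 1 library per label. The libraries held 1785 barcodes with 7945713 unique molecular identifiers (UMIs, counts of single captured transcripts) under the knockout label, and 2735 barcodes with 11020717 UMIs under the wildtype label. After filtering, 1761 cells (median 4286 UMIs) and 2695 cells (median 3910 UMIs) remained, and 1 barcode sequence was shared. Igfbpl1 itself went against the labels, with 29 counts in the library labelled knockout (3.65 CPM, counts scaled to 1000000 UMIs) and 2 counts in the library labelled wildtype (0.181 CPM). A 3′ tag outside the altered part would check nothing, so libraries are named by their labels throughout (library labelled knockout, or knockout label for short, and likewise for wildtype) and every direction between them rests on those labels.

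Cells were assigned by UMI counts of stated marker genes, none of them among the 10. Spp1-high cells held at least 10 UMIs of at least 3 of Spp1, Gpnmb, Fabp5 and Lgals3, genes of activated, lipid-handling macrophages, and numbered 19 in the library labelled knockout and 8 in the library labelled wildtype. Border macrophages, the macrophages of vessels and membranes, held at least 3 UMIs of at least 2 of 8 genes that include Mrc1, Pf4 and Ms4a7, and more of these than of the microglia list. They numbered 50 (knockout label) and 74 (wildtype label). Müller glia held at least 5 UMIs of at least 3 of 8 genes that include Rlbp1, Aqp4 and Clu, and numbered 39 (knockout label) and 51 (wildtype label). Microglia held at least 3 UMIs of at least 2 of 7 genes that include P2ry12 and Tmem119, and numbered 1476 (knockout label) and 2366 (wildtype label). Genes outside the gate lists were read as a check of these names. Glul, the glutamine synthetase gene of Müller glia, stood at 12652 CPM (knockout label) and 10063 CPM (wildtype label) in Müller glia against 508.8 and 497.2 CPM in microglia. Ptprc, which encodes the CD45 of the sort, was at 4.98 CPM (knockout label) and 21.5 CPM (wildtype label) in Müller glia against 336.5 and 375.4 CPM in microglia. Cd74, the invariant chain gene of MHC class II, stood at 6571 CPM (knockout label) and 11698 CPM (wildtype label) in border macrophages against 295.6 and 191.2 CPM in microglia. Cd68, a lysosomal macrophage gene, stood at 2033 CPM (knockout label) and 1609 CPM (wildtype label) in Spp1-high cells against 630.7 and 621.0 CPM in microglia.

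The gates were not of equal purity. Of the Spp1-high cells, 12 (knockout label) and 7 (wildtype label) also met another gate, as did 35 and 56 of the border macrophages and 1 and 7 of the Müller glia. The microglia list summed to 707.7 CPM (knockout label) and 1444 CPM (wildtype label) in Spp1-high cells, 1510 and 1624 CPM in border macrophages, 49.8 and 857.4 CPM in Müller glia and 7765 and 7658 CPM in microglia. Spp1-high cells were deeper, with medians of 9165 UMIs (knockout label) and 13794.5 UMIs (wildtype label), than microglia with 4377.5 and 3984. Near the Spp1-high limit, 3 cells (knockout label) and 1 cell (wildtype label) inside the gate held under 15 UMIs of its list. Among microglia, border macrophages and ungated cells, 11 (knockout label) and 12 (wildtype label) held 10 or more from fewer than 3 of its genes. Not all of these were marginal, as they reached 373 (knockout label) and 153 (wildtype label) UMIs of the list. The medians inside the gate were 79 and 51.5.

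**Figure D1:**
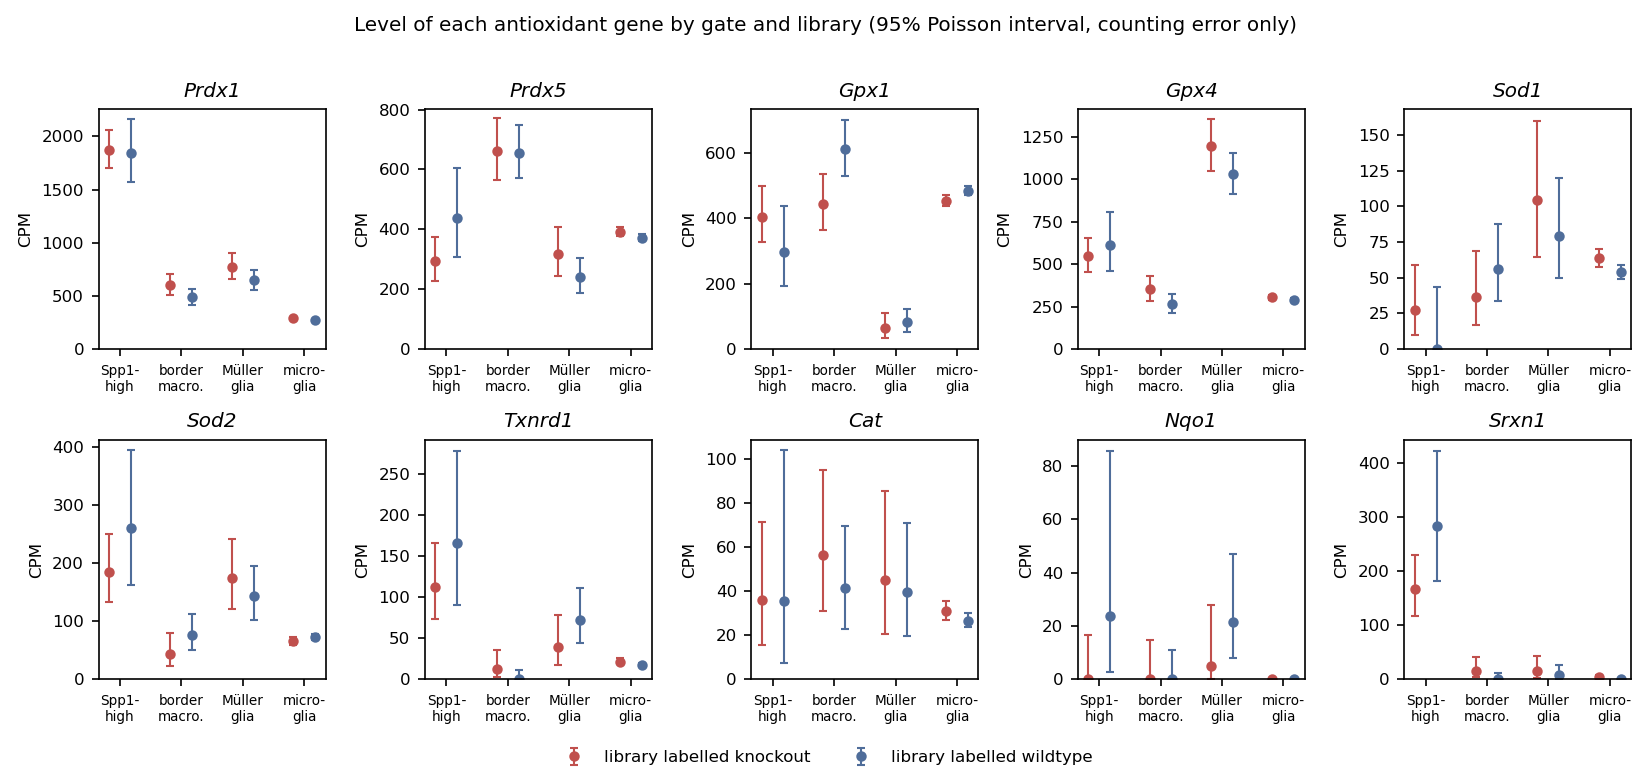
Level of each of the 10 genes in CPM (vertical axes, separate scales) in 4 gates, with the library labelled knockout left of the library labelled wildtype, points at the summed level and bars for the exact 95% Poisson interval, which covers counting error only. Prdx1, Txnrd1 and Srxn1 were highest in Spp1-high cells of both libraries (Prdx1 1875 CPM with the knockout label and 1846 CPM with the wildtype label), Gpx4 in Müller glia (1195 and 1030 CPM), and Gpx1 was lowest in Müller glia (64.7 and 82.5 CPM).

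The 4 gates differed in which antioxidant transcripts stood highest. Prdx1 ran from Spp1-high cells through Müller glia and border macrophages down to microglia in both libraries, and the middle pair had overlapping intervals in each. Gpx4 ran from Müller glia to Spp1-high cells, and its lower pair, border macrophages and microglia, had overlapping intervals in both libraries. Prdx5 was highest in border macrophages, where its interval overlapped that of Spp1-high cells in the library labelled wildtype. Gpx1 was lowest in Müller glia, and the order of its other 3 gates differed between the libraries. The plot of levels by gate and library shows these patterns. Gates were compared with edgeR's quasi-likelihood test on 8 summed profiles (4 gates in each of 2 libraries, library as a term), with p-values adjusted over all 5902 genes tested and a threshold of 0.05. Of the 10 genes 9 passed the low-count filter, and Nqo1 did not. Cells of 1 library share their source, so the sums and not the cells were the units. With library as a term, these p-values rest on how far the gate differences disagreed between the 2 libraries, estimated over all 4 gates. The shift between the libraries themselves is not part of that spread, and the libraries differ in label and gate purity.

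Srxn1, Txnrd1 and Prdx1 had the largest log2 fold changes of the 9 tested members in Spp1-high cells. The gene of sulfiredoxin, Srxn1, stood at 166.8 CPM in Spp1-high cells of the library labelled knockout (interval 117.4 to 229.9) and 284.0 CPM in those of the library labelled wildtype (182.0 to 422.6). In microglia it stood at 5.09 CPM (knockout label) and 1.32 CPM (wildtype label). The intervals of the libraries overlapped in Spp1-high cells, and both Spp1-high values lay above both microglial values. The log2 fold change was 6.27 ± 0.51 (SE) with an edgeR adjusted p of 2.11e-09. Srxn1 stood at 16.1 CPM or less in the other gates compared. It therefore passed the low-count filter through the Spp1-high sums, and this p rests on the gate where the gene was high. Txnrd1 stood at 112.7 CPM (knockout label) and 165.7 CPM (wildtype label) in Spp1-high cells and at 21.6 and 17.0 CPM in microglia, a log2 fold change of 2.98 ± 0.40 (edgeR adjusted p = 7.22e-06). Prdx1 stood at 1875 CPM (knockout label) and 1846 CPM (wildtype label) in Spp1-high cells and at 292.4 and 275.1 CPM in microglia, 7.66-fold apart on the fitted scale (log2 2.94 ± 0.27, edgeR adjusted p = 1.74e-08). The log2 fold change was 1.72 when each cell was thinned to 1000 UMIs (edgeR adjusted p = 0.000354), which weights cells equally. The median cell stood at 630.4 CPM (knockout label) and 596.2 CPM (wildtype label) in Spp1-high cells and at 199.4 and 210.8 CPM in microglia.

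The promoters of these 3 genes are shown because the genes were high together. Sequences are the 250 bases before the RefSeq transcript start in GRCm38.p6, written in the direction of transcription. Capitals mark matches on either strand of TGACNNNGC or TGANTCA. The first was taken as the core of the antioxidant response element, and the second is the core bound by AP-1 factors. All 3 genes lie on the plus strand, and the lines give Srxn1 at chr2:152105274-152105523, Prdx1 at chr4:116685349-116685598 and the Txnrd1 start at chr10:82858956-82859205.
Srxn1: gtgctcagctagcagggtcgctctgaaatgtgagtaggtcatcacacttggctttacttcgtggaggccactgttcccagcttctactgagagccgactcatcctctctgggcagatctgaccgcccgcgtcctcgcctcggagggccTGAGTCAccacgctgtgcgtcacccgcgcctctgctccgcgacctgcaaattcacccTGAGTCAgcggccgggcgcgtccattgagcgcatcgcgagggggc
Prdx1: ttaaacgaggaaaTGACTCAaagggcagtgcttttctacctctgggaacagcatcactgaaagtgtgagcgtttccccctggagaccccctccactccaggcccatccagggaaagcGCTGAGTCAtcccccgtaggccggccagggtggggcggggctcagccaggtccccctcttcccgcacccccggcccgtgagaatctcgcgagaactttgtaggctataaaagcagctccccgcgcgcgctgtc
Txnrd1: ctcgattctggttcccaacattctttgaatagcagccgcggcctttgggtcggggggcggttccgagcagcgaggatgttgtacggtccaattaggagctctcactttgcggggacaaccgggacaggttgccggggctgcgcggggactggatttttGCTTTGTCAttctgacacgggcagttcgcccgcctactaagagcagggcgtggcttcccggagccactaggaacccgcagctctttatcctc
Srxn1 had 2 matches of TGANTCA, whose first bases lay 102 and 45 bases before the start, and 0 matches of TGACNNNGC. With the bases that follow it, the match at 45 bases reads TGAGTCAgc, which differs from TGACNNNGC at 1 base. Looser forms of that core were not searched, so the 0 holds for the strict form alone. Prdx1 had 2 matches of TGANTCA, 1 of which overlaps its match of TGACNNNGC on the minus strand. Txnrd1 had 1 match of TGACNNNGC in this window and 0 in its other 2 windows. Over all members, 3 of 15 windows held TGACNNNGC (the remaining one in Sod1) and 2 held TGANTCA. Among 32851 mouse promoter windows of the same length, 10.2% held TGACNNNGC and 6.75% held TGANTCA. A match describes letters only.

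Of the other members, Sod2 and Gpx4 also rose in Spp1-high cells. Sod2 stood at 184.8 CPM (knockout label) and 260.3 CPM (wildtype label) in Spp1-high cells against 65.9 and 72.3 CPM in microglia (log2 1.87 ± 0.26, edgeR adjusted p = 9.42e-06). Gpx4 stood at 549.9 CPM (knockout label) and 615.3 CPM (wildtype label) against 304.8 and 289.1 CPM in microglia (log2 1.19 ± 0.26, edgeR adjusted p = 0.00214). In all, 5 of the 9 tested members were higher and 0 lower in Spp1-high cells, beside 8.93% of all tested genes higher and 9.35% lower. The median log2 fold change of the 9 was 1.19, beside -0.13 for all genes. This tally and this median include Srxn1, which passed the low-count filter through the Spp1-high sums. Prdx1, Txnrd1, Sod2 and Gpx4 were the other members called. Prdx5 (log2 0.10 ± 0.27), Gpx1 (-0.11 ± 0.28), Cat (0.52 ± 0.48) and Sod1 (-1.38 ± 0.57, edgeR adjusted p = 0.0974) did not pass. Sod1 had 6 counts in the Spp1-high cells of the library labelled knockout and 0 in those of the library labelled wildtype, which allows up to 35.5 CPM.

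**Figure D2:**
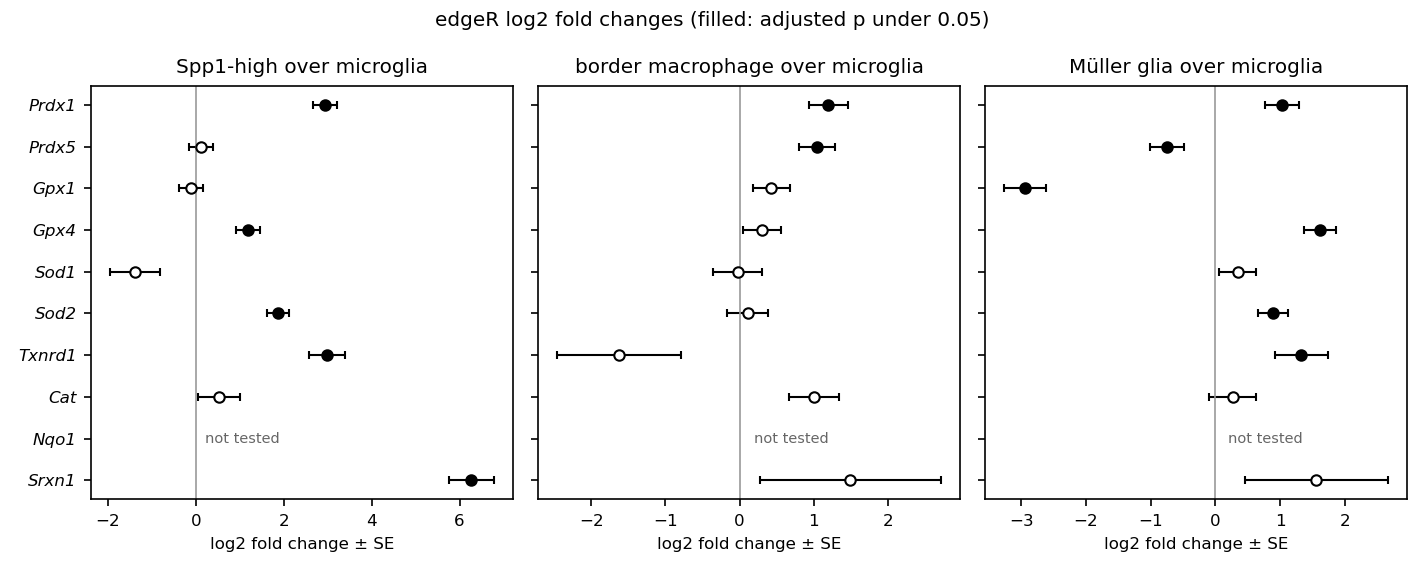
log2 fold changes of the 10 genes in Spp1-high cells, border macrophages and Müller glia over microglia (horizontal axes, bars ± 1 SE from edgeR on 8 sums), filled where the adjusted p was under 0.05. Srxn1 (6.27), Txnrd1 (2.98) and Prdx1 (2.94) were highest in Spp1-high cells, and Gpx1 lay at -2.94 in Müller glia.

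The counts of Srxn1 were concentrated in few cells. It was counted in 6 of 19 Spp1-high cells of the library labelled knockout, where 1 cell held 16 of 37 counts, and in 3 of 8 of the library labelled wildtype, where 1 cell held 22 of 24. That wildtype-labelled cell also held 12 of the 14 Txnrd1 counts of its gate. Over all 4456 kept cells, 6 cells with at least 5 Srxn1 UMIs carried 83 of 135 Srxn1 counts (61.5%). These 6 cells, 4 in the library labelled knockout and 2 in the library labelled wildtype, were picked for Srxn1, so the other values in them are given as a description. Their median depth was 11751.5 UMIs (knockout label) and 13316.5 UMIs (wildtype label), against 4286 and 3910 in all kept cells. The part of depth in their counts was not tested. Prdx1 numbered 76, 79, 90 and 112 UMIs in the 4 cells of the library labelled knockout, and 19 and 70 in the 2 of the library labelled wildtype. Scaled to depth, these were 5301 to 26322 CPM (knockout label) and 1870 and 4249 CPM (wildtype label). Txnrd1 numbered 3 to 8 UMIs in the 4 knockout-labelled cells and 5 and 12 in the 2 wildtype-labelled cells. Nqo1, known as an NRF2 target like Srxn1, had 1 UMI in the 6 cells together. Gclm, which encodes the regulatory subunit of glutathione synthesis, numbered 4 to 30 UMIs in the 4 knockout-labelled cells and 5 and 13 in the 2 wildtype-labelled cells. Of the 6 cells, 3 were in the Spp1-high gate, 2 in the microglia gate and 1 in no gate, and each held 9 or more UMIs of the Spp1-high list.

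**Figure D3:**
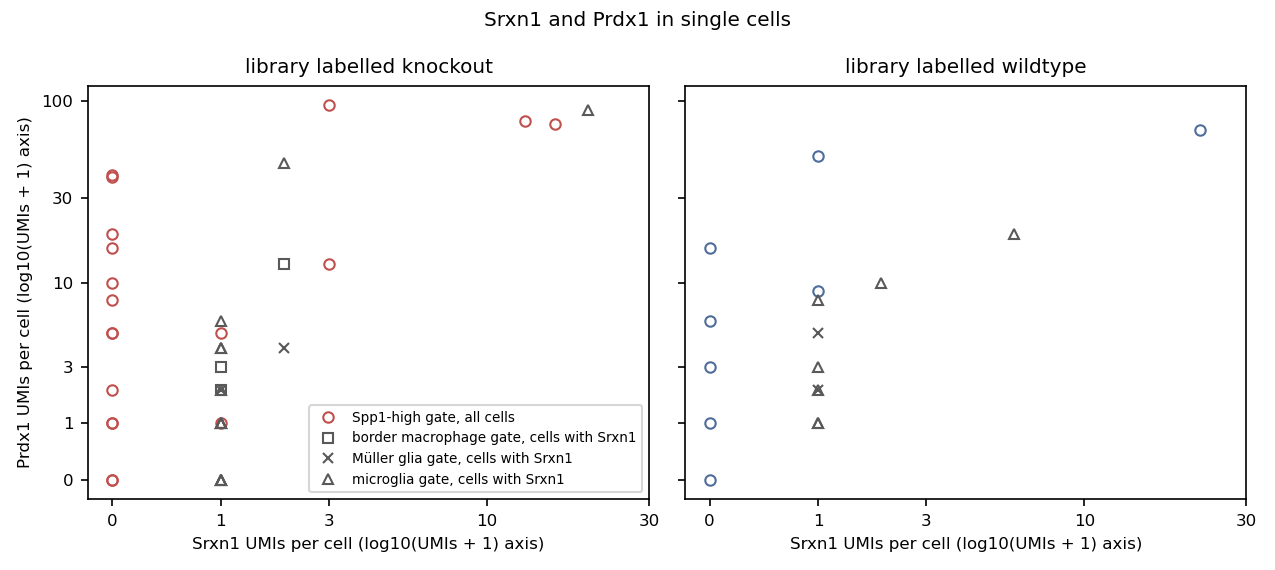
Prdx1 UMIs (vertical axis) against Srxn1 UMIs (horizontal axis) per cell on log10(UMIs + 1) axes, in the library labelled knockout (left) and the library labelled wildtype (right), for all Spp1-high cells and for cells of the other 3 gates with at least 1 Srxn1 UMI. Cells with 13 or more Srxn1 UMIs held 70 or more Prdx1 UMIs, while Prdx1 also reached 96 UMIs in a cell with 3 Srxn1 UMIs.

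Leaving these cells out lowered the levels of all 3 genes in the Spp1-high gate. Without cells of 5 or more Srxn1 UMIs, Srxn1 stood at 40.3 CPM (knockout label) and 29.4 CPM (wildtype label) in Spp1-high cells and at 2.10 and 0.712 CPM in microglia, and it no longer passed the low-count filter, so this value has no test. The Txnrd1 log2 fold change was then 1.97 and that of Prdx1 2.53, with edgeR adjusted p = 0.014 and 3e-08. Txnrd1 then stood at 70.6 CPM (14 counts, knockout label) and 29.4 CPM (2 counts, wildtype label) in Spp1-high cells. In microglia it stood at 20.4 and 16.5 CPM. Across the 12 alternatives that could test it, Txnrd1 had adjusted p between 5.28e-13 and 0.014, and across 13 alternatives Prdx1 had 1.39e-94 to 0.000354. Within Spp1-high cells Prdx1 was spread over more cells, counted in 17 of 19 cells with the knockout label (median 8 UMIs, range 0 to 96) and in 7 of 8 with the wildtype label (median 7.5 UMIs, range 0 to 70). The Sod2 call was lost when each cell was thinned to 1000 UMIs (log2 0.72, edgeR adjusted p = 0.866), where 0 of 19 Spp1-high cells (knockout label) and 3 of 8 (wildtype label) kept a Sod2 UMI. The Gpx4 call was lost without cells that met more than 1 gate (log2 0.33, edgeR adjusted p = 0.847), a setting that left 7 Spp1-high cells in the library labelled knockout and 1 in the library labelled wildtype. Over the alternatives, the adjusted p of Sod2 ran from 5.21e-11 to 0.866 and that of Gpx4 from 2.39e-08 to 0.847.

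Within the microglia gate, levels were also read by UMIs of the Spp1-high list, as a description. In the library labelled knockout Prdx1 stood at 262.0 CPM in 1403 microglia that held 0 UMIs of the list, at 272.3 CPM in 51 that held 1 to 2 and at 1120 CPM in 22 that held 3 or more. In the library labelled wildtype the values were 267.4 CPM in 2279 cells, 318.0 CPM in 69 cells and 777.7 CPM in 18 cells. In both libraries the larger step lay between 1 to 2 and 3 or more UMIs. Srxn1 was likewise highest in the cells with 3 or more, at 1.79, 3.40 and 94.4 CPM in the library labelled knockout and at 0.641, 0 and 62.6 CPM in the library labelled wildtype, where the 0 has an upper interval bound of 9.86 CPM. Its 22 counts (knockout label) and 7 counts (wildtype label) in the cells with 3 or more lay in 2 cells of each library. Gpx1 stood at 447.7, 547.9 and 493.4 CPM with the knockout label and at 478.1, 563.8 and 706.2 CPM with the wildtype label, so it was highest in the cells with 3 or more UMIs in the library labelled wildtype alone. The 22 cells (knockout label) and 18 cells (wildtype label) were also deeper, with medians of 9049.5 and 6589.5 UMIs against 4310 and 3960 in cells with none, and the part of depth in the grouping was not tested.

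**Figure D4:**
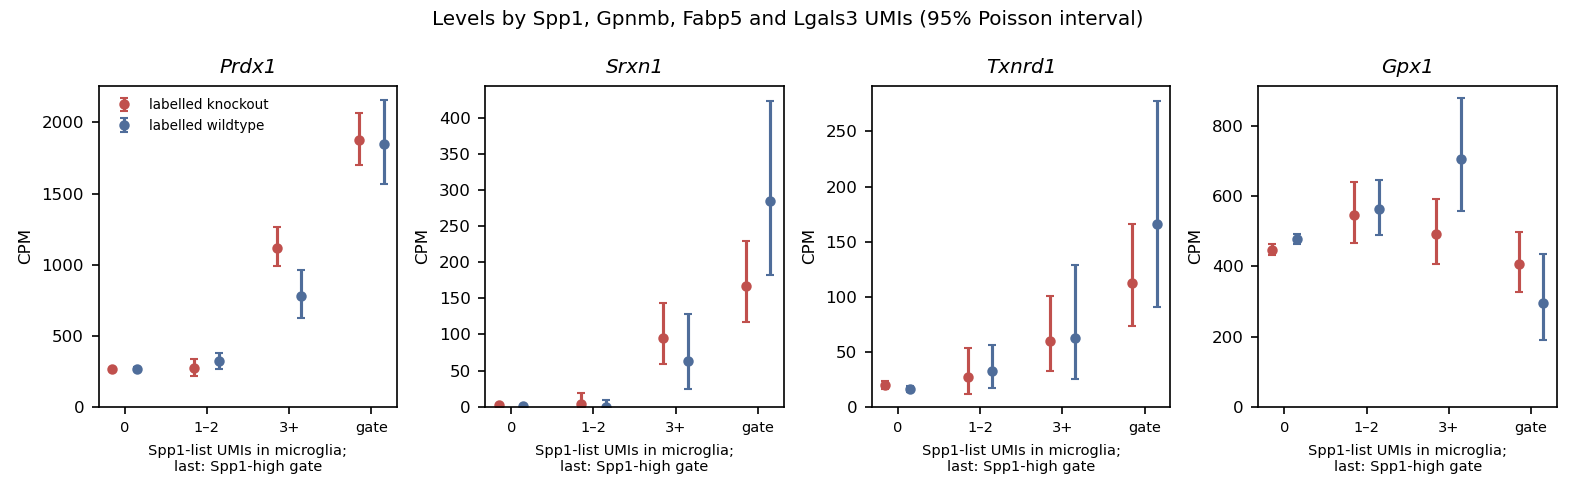
CPM (vertical axes) of Prdx1, Srxn1, Txnrd1 and Gpx1 in microglia with 0, 1 to 2 and 3 or more UMIs of Spp1, Gpnmb, Fabp5 and Lgals3, and last in the Spp1-high gate, with the library labelled knockout left of the library labelled wildtype and bars for the 95% Poisson interval. Prdx1 was at 1120 CPM (knockout label) and 777.7 CPM (wildtype label) in the group with 3 or more UMIs, where Gpx1 was at 493.4 and 706.2 CPM.

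Of the wider redox list, 60 further genes of peroxide, glutathione, thioredoxin and NADPH metabolism, 48 were tested and 19 were higher and 5 lower in Spp1-high cells. Of all tested genes, 8.93% were higher and 9.35% lower. The median log2 fold change of the list was 0.61, beside -0.13 for all genes. The list's median was 0.79 with 3 genes at 0 in a gate placed at their bound. Highest were Gpx3, the secreted glutathione peroxidase (175.8 CPM with the knockout label and 59.2 CPM with the wildtype label against 0.749 and 0.305 in microglia), Mgst1, a membrane glutathione transferase (58.6 and 11.8 CPM against 1.20 and 1.22), and Slc7a11, the cystine importer (85.6 and 165.7 CPM against 6.14 and 4.77). Outside Spp1-high cells Slc7a11 stood at 29.9 CPM or less in the sums compared, except wildtype-labelled Müller glia (71.8 CPM). It therefore passed the low-count filter through the Spp1-high sums, and its call rests on the gate where it was high. The same holds for Gsr (63.1 CPM with the knockout label and 153.8 CPM with the wildtype label against 23.95 and 24.37 in microglia). It also holds for Gsto1 (63.1 and 165.7 CPM against 33.2 and 31.8). These genes are among the 19 called higher, and the list's median includes them. Lowest were Oxr1, an oxidation resistance gene (9.02 CPM with the knockout label and 0 CPM with the wildtype label against 56.1 and 58.3), Sesn1, a sestrin (9.02 and 11.8 CPM against 72.5 and 74.6), and Gstp1, a glutathione transferase (9.02 and 0 CPM against 41.0 and 33.3). The count of calls was 5 when cells were thinned and 13 without cells that met more than 1 gate.

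In border macrophages both peroxiredoxins rose, and they were the members called. Prdx1 stood at 605.4 CPM (knockout label) and 487.2 CPM (wildtype label) against 292.4 and 275.1 CPM in microglia (log2 1.19 ± 0.26, edgeR adjusted p = 0.00245). Prdx5, a peroxiredoxin of mitochondria and peroxisomes, stood at 661.9 CPM (knockout label) and 655.5 CPM (wildtype label) against 391.9 and 372.4 CPM in microglia (log2 1.04 ± 0.24, edgeR adjusted p = 0.00445). For both genes the 2 border macrophage values lay above the 2 microglial values. These 2 of 9 were called higher and 0 lower, beside 5.56% of all tested genes higher and 4.73% lower, and the median of members was 0.43 beside -0.04 for all genes. Neither was called without cells that met more than 1 gate, which left 15 (knockout label) and 18 (wildtype label) border macrophages, although the log2 fold changes were still 1.09 and 0.81 (edgeR adjusted p = 0.357 and 0.326). Over all alternatives, adjusted p ran from 3.58e-14 to 0.357 for Prdx1 and from 1.44e-06 to 0.326 for Prdx5.

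The other members of border macrophages stayed short of the threshold. Cat stood at 56.5 CPM (knockout label) and 41.3 CPM (wildtype label) in border macrophages against 31.0 and 26.6 CPM in microglia (log2 1.00 ± 0.33, edgeR adjusted p = 0.0562), and was called in 4 of 11 alternatives, with adjusted p from 0.0477 to 0.991. Gpx1 was at 444.0 CPM (knockout label) and 611.2 CPM (wildtype label) and Gpx4 at 351.1 and 265.7 CPM, with log2 fold changes of 0.43 ± 0.25 and 0.30 ± 0.26. Sod1 and Sod2 lay close to microglia, at -0.03 ± 0.33 and 0.11 ± 0.28. Txnrd1 had 3 counts in the library labelled knockout and 0 in the library labelled wildtype, and Srxn1 had 4 and 0. Of all tested genes, 5.56% were higher and 4.73% lower, with a median of -0.04. Of the wider redox list, 11 of 48 were higher and 0 lower, with a median of 0.13, or 0.19 with 2 genes at their bound. The top 3 were Gpx3 (76.7 CPM with the knockout label and 44.3 CPM with the wildtype label), Mgst1 (40.4 and 44.3 CPM) and Gstm1, a glutathione transferase (16.1 and 20.7 CPM against 6.29 and 4.88 in microglia). This count was 5 when cells were thinned, 7 with strict gates and 2 without cells that met more than 1 gate.

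Müller glia differed in which peroxidase they carried. Gpx4, which reduces lipid peroxides and is known to guard cells against ferroptosis, stood at 1195 CPM (knockout label) and 1030 CPM (wildtype label) in Müller glia against 304.8 and 289.1 CPM in microglia (log2 1.61 ± 0.25, edgeR adjusted p = 3.62e-06). Gpx1, the cytosolic glutathione peroxidase, stood at 64.7 CPM (knockout label) and 82.5 CPM (wildtype label) against 453.7 and 483.9 CPM in microglia (log2 -2.94 ± 0.32, edgeR adjusted p = 2.01e-08). Both were called under all 13 alternatives that tested them, and without cells that met more than 1 gate the log2 fold changes were 1.73 and -3.41. Prdx5 was lower, at 318.7 CPM (knockout label) and 240.4 CPM (wildtype label) (log2 -0.75 ± 0.26, edgeR adjusted p = 0.0155), and this call was lost in 3 of 13 alternatives, among them scaling to library totals (log2 -0.41). Its adjusted p ran from 0.000911 to 0.169.

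Prdx1, Sod2 and Txnrd1 were also higher in Müller glia than in microglia. Prdx1 stood at 771.8 CPM (knockout label) and 645.8 CPM (wildtype label) (log2 1.03 ± 0.26, edgeR adjusted p = 0.0014), and Sod2 at 174.3 and 143.5 CPM (log2 0.90 ± 0.23). Txnrd1 stood at 39.8 and 71.8 CPM (log2 1.33 ± 0.41), with a log2 fold change of 0.55 in the library labelled knockout alone and 1.83 in the library labelled wildtype alone. The Prdx1 call was lost without cells that met more than 1 gate (log2 1.09, edgeR adjusted p = 0.0817, range over alternatives 1.75e-16 to 0.0817). Sod1 (104.6 CPM with the knockout label and 78.9 CPM with the wildtype label, log2 0.35 ± 0.28), Cat (44.8 and 39.5 CPM, 0.27 ± 0.36) and Srxn1 (3 and 2 counts, 1.56 ± 1.11) did not pass. In all, 4 of 9 members were higher and 2 lower, beside 29.6% of all tested genes higher and 30.7% lower, and the median was 0.90 beside -0.05 for all genes. Most genes tested were called in this contrast, so the count of members called does not set them apart.

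Nqo1 was counted only in Müller glia and Spp1-high cells among the 4 gates. It had 1 count in Müller glia of the library labelled knockout and 6 counts in 4 of 51 Müller glia of the library labelled wildtype (21.5 CPM, interval 7.90 to 46.9). It had 0 counts in the microglia of both libraries, which allows up to 0.449 CPM (knockout label) and 0.305 CPM (wildtype label). In the library labelled wildtype 1 Müller cell held 3 of the 6 counts, and without it the level was 10.9 CPM. The Spp1-high cells held 0 counts in the library labelled knockout and 2 in the library labelled wildtype. Nqo1 was counted in 1 of 39 Müller glia in the library labelled knockout (median depth 5622 UMIs) and in 4 of 51 (7.84%) in the library labelled wildtype (median depth 5036 UMIs). The part of free RNA in these few counts was not tested.

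Of all tested genes, 29.6% were higher and 30.7% lower in Müller glia, with a median log2 fold change of -0.05. Of the wider redox list, 18 of 48 were higher and 11 lower, with a median of 0.21. As most genes tested were called, these counts do not set the list apart. Highest were Gpx8, a peroxidase of the endoplasmic reticulum (224.1 CPM with the knockout label and 175.8 CPM with the wildtype label against 0.299 and 0 CPM in microglia), Me1, the NADPH-making malic enzyme, and Gsta4, a glutathione transferase for lipid aldehydes (184.2 and 258.3 CPM against 0.898 and 0.711). These genes stood at 9.02 CPM or less in the other gates compared, so they passed the low-count filter through the Müller glia sums. Sesn3 (323.6 CPM with the knockout label and 244.0 CPM with the wildtype label against 5.69 and 5.18 in microglia) did so too. The calls of these genes, which are among the 18, rest on the gate where they were high. Me1 stood at 54.8 CPM (knockout label) and 57.4 CPM (wildtype label) in Müller glia and had 0 counts in microglia, so that it was at least 122-fold and at least 188-fold higher per library. Lowest were Selenop, the selenium carrier (64.7 CPM with the knockout label and 200.9 CPM with the wildtype label against 1207 and 1374 in microglia), Bach1, the repressor that competes with NRF2 (19.9 and 7.18 CPM against 98.8 and 105.5), and Gsto1 (0 and 7.18 CPM against 33.2 and 31.8). Thinning left 13 calls of this list.

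Between the libraries, 8 of the 10 genes lay within 1.5-fold of each other in microglia, Srxn1 did not and Nqo1 had no counts. With 1 library per label there is no test. Each ratio divides the knockout-labelled CPM by the wildtype-labelled CPM, and its exact 95% interval comes from how the counts divide between the libraries. Gpx1 stood at 453.7 CPM in the library labelled knockout and 483.9 CPM in the library labelled wildtype, and its ratio was 0.938 (interval 0.896 to 0.982). The ratio was 1.18 (1.04 to 1.35) for Sod1, at 63.6 CPM (knockout label) and 53.8 CPM (wildtype label), and 1.27 (1.01 to 1.60) for Txnrd1, at 21.6 and 17.0 CPM. Prdx1 (1.06), Prdx5 (1.05), Gpx4 (1.05), Cat (1.17) and Sod2 (0.911) also lay near 1. Of 9 members with at least 30 counts, 1 was at least 1.5-fold higher and 0 lower, beside 3.17% of 11030 genes higher and 4.43% lower. The median log2 ratio of the 9 was 0.09, beside -0.03 for all genes. Apoe, high in Spp1-high cells and border macrophages, stood at 4464 CPM (knockout label) and 1620 CPM (wildtype label) in these microglia, and its part in the ratios was not tested. Intervals cover counting error only, and no value here shows how far 2 libraries of one label would differ.

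Srxn1 stood at 5.09 CPM (34 counts in 14 of 1476 microglia, knockout label) and 1.32 CPM (13 counts in 7 of 2366, wildtype label), a ratio of 3.86 (interval 1.98 to 7.96). A single cell held 20 of the 34 counts and another 6 of the 13. These cells held 3 (knockout label) and 8 (wildtype label) UMIs of the microglia list, where the gate asks for 3 and its medians were 35 and 31, and 43 and 34 UMIs of the Spp1-high list. Leaving those cells out gave 14 counts in the library labelled knockout and 7 in the library labelled wildtype (2.10 and 0.712 CPM, log2 ratio 1.56). With strict gates the log2 ratio was 0.68. The strict microglia gate asks for more UMIs of its list than the 3 of the knockout-labelled cell, so it left out that cell's 20 counts. Whether it kept the wildtype-labelled cell is not given here. The share of microglia with a Srxn1 UMI was 0.949% (knockout label) and 0.296% (wildtype label), and the part of free RNA in shares this low was not tested. After thinning the Srxn1 shares were 0.412% (knockout label) and 0.0857% (wildtype label). The Prdx1 ratio had an interval just above 1 (1.00 to 1.13, log2 0.09), and leaving out the 22 (knockout label) and 18 (wildtype label) microglia with 3 or more UMIs of the Spp1-high list changed its log2 value to -0.04.

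**Figure D5:**
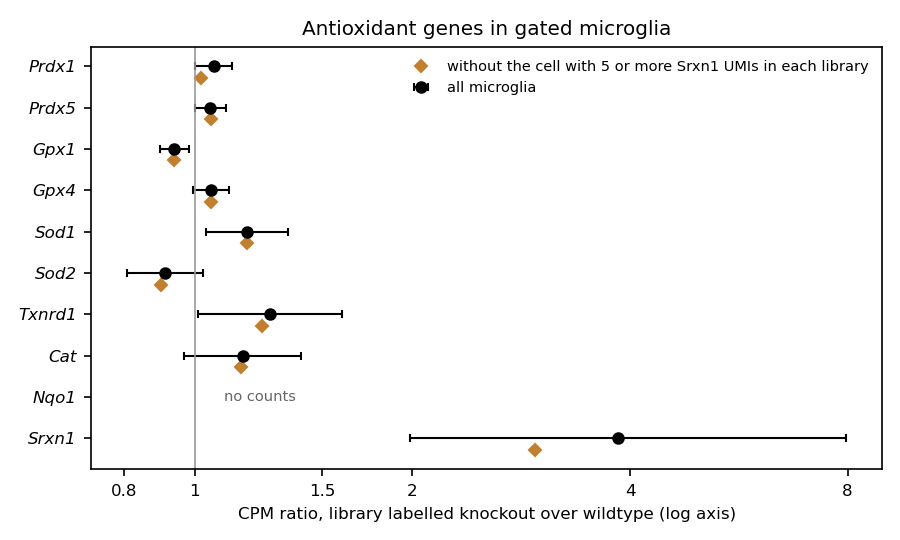
Ratio of knockout-labelled to wildtype-labelled CPM in gated microglia for each gene (log horizontal axis), with all microglia as black points and 95% counting intervals and, as diamonds, without the 1 cell of each library with 5 or more Srxn1 UMIs. Gene ratios apart from Srxn1 lay between 0.911 and 1.27, Srxn1 was at 3.86, and Nqo1 had 0 counts.

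Outside microglia the libraries could be compared on fewer counts. In Spp1-high cells Prdx1 had a ratio of 1.02 (interval 0.843 to 1.23) and Srxn1 one of 0.587 (0.342 to 1.03), with an interval that held 1. Here 1 wildtype-labelled cell held 22 of 24 Srxn1 counts, and without cells of 5 or more Srxn1 UMIs the level was higher in the library labelled knockout (40.3 CPM) than in the library labelled wildtype (29.4 CPM), from 8 and 2 counts. Of 7 members with at least 30 counts there, 0 were at least 1.5-fold higher and 1 (Srxn1) lower, beside 16.6% higher and 18.1% lower of 1307 genes. In border macrophages Gpx1 stood at 444.0 CPM (knockout label) and 611.2 CPM (wildtype label) with a ratio of 0.726 (0.571 to 0.920), the 1 member outside microglia whose interval left out 1. Of 5 members with at least 30 counts, 0 were higher and 1 (Sod2, 11 counts with the knockout label and 26 counts with the wildtype label, ratio 0.578, 0.258 to 1.21) lower by 1.5-fold, beside 8.9% higher and 9.82% lower of 2607 genes. In Müller glia 0 of 6 members passed 1.5-fold in either direction, beside 10.3% higher and 12.4% lower of 3196 genes, with Gpx4 at 1.16 (0.974 to 1.38) and Prdx1 at 1.20 (0.958 to 1.49). Of the wider redox list in microglia, 0 of 54 genes passed 1.5-fold. Among those at 50 CPM or more, Txn1 (thioredoxin, 1.22), Blvrb (1.14) and Hmox1 (heme oxygenase, 1.08) had the highest ratios and Keap1 (0.852), Txnip (0.865) and Tkt (0.874) the lowest. Keap1 encodes the sensor that holds NRF2 back, and Txnip the protein that binds thioredoxin.

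Detection was read as the share of cells with a UMI. Prdx5 and Gpx1 were counted in most microglia, 73.2% of cells for either gene in the library labelled knockout and 71.1% and 74.0% in the library labelled wildtype. After thinning each cell to 1000 UMIs these shares were 32.1% and 35.2% in the library labelled knockout and 33.1% and 36.8% in the library labelled wildtype. Gpx4 was counted in 97.4% (knockout label) and 94.1% (wildtype label) of Müller glia, and in 72.7% (interval 54.5 to 86.7) and 59.2% (44.2 to 73.0) after thinning, against 25.7% and 25.5% of thinned microglia. Gpx1 was counted in 6.06% (0.743 to 20.2) and 2.04% (0.0517 to 10.9) of thinned Müller glia. Sod1 was counted in 22.2% (knockout label) and 18.3% (wildtype label) of microglia, Sod2 in 22.9% and 25.2%, Cat in 12.1% and 10.1%, and Txnrd1 in 8.40% and 6.04%. At matched depth the order of shares was not always that of the levels. Prdx1 was counted in 47.4% (knockout label) and 37.5% (wildtype label) of thinned Spp1-high cells, against 51.5% and 44.9% of thinned Müller glia, although its CPM was higher in Spp1-high cells. Sod2 was counted in 0 of 19 thinned Spp1-high cells and 5.91% of thinned microglia in the library labelled knockout. A cell without a UMI may still express the gene.

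The genes closest to each member in pattern were taken by Pearson's r of log2(CPM + 10) over the 8 sums among 5833 genes. The sums share 2 libraries, so r is a description. Prdx1 was closest to Txn1 (thioredoxin, r = 0.984) and Vat1 (0.983), Srxn1 to Gga2 (0.989) and Gng5 (0.980), and Txnrd1 to Slc39a7 (0.989) and Arl8a (0.961). Gpx1 was closest to Psmb8 (0.994), a subunit of the immunoproteasome, and Tmem219 (0.991), and Prdx5 to Pxdc1 (0.960) and H2-Ab1 (0.947), an MHC class II gene. Gpx4 was closest to Pdlim4 (0.991) and Slc27a1 (0.989), Sod1 to Tpgs1 (0.988) and Smim20 (0.987), Sod2 to Mrps28 (0.991) and Ifrd1 (0.987), and Cat to mt-Co3 (0.937) and Itsn1 (0.868). Between members, Prdx1 and Srxn1 had an r of 0.918 and Sod2 and Txnrd1 one of 0.847, while Gpx1 and Gpx4 ran against each other at -0.945.

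In GRCm38 the members lie on 8 chromosomes. Srxn1 spans chr2:152105516-152111376, Prdx1 chr4:116685544-116700822, Txnrd1 chr10:82833951-82897712, Gpx4 chr10:80047166-80056439 and Gpx1 chr9:108338903-108340343, all on the plus strand. Overlapping genes were annotated for 3 of the 10: Trmt112 opposite Prdx5, Scaf4 opposite Sod1, and Eid3 on the strand of Txnrd1. Gm38560 and Gm47073 were annotated opposite Txnrd1. How the counting treated strand is not given in the sources used here, so reads of these 3 genes may be shared.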

How the data were processed

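The submitters deposited 1 table of raw UMI counts per library, from 10x Chromium 3′ libraries of CD45-sorted retinal cells. Reads were processed with Cell Ranger 3.1 on mm10, per the submitters' processing notes, and the counting of strand and multi-mapped reads is not given in the sources used here. Treated animals named in the design text were not analysed here.

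Barcodes with at least 500 UMIs, 250 genes and at most 15% mitochondrial counts were kept. No doublet caller was run, and cells that met more than 1 gate were counted and left out as an alternative. Gates were applied in a fixed order (retinal neuron, Müller glia, lymphocyte, monocyte, Spp1-high, border macrophage, microglia). The 10 genes, the wider list, the gates and the rule for named genes were chosen with earlier results of these data known. That rule named all 10 members, the 3 highest and 3 lowest called genes of the wider list per comparison of gates, its 3 highest and 3 lowest ratios in microglia, and the 2 closest patterns per member. The promoters, the 6 cells rich in Srxn1 and the genes shown in them were chosen after values had been seen.

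Counts were summed per library and gate and given as CPM of all UMIs of that sum, which for 3′ UMIs are not scaled by gene length. Gates were compared with edgeR 4.0.16 (R 4.3.3; TMM scaling, filterByExpr, quasi-likelihood test, library and gate as terms, 3 residual degrees of freedom, Benjamini-Hochberg over 5902 genes), which was tested on simulated data. Of genes simulated 2-fold higher in Spp1-high cells 7 of 45 were called, and of those 4-fold higher 45 of 50. Of genes simulated at 0.5-fold 4 of 37 were called, at 0.25-fold 21 of 42, and of unchanged genes 4 of 4710. A member that was not called may therefore still differ. The simulation gave all genes the same dispersion and no difference between the other gates, so its rates may not hold for the real sums. Libraries were compared as ratios of CPM with no test. Intervals are 95% (exact Poisson, Clopper-Pearson for shares, and the exact split of counts for ratios) and cover counting error only, and a count of 0 allows 3 counts. Alternatives were DESeq2 1.42.0, other scaling, filters, gates and thinning, and, added after the data had been seen, leaving out microglia with 3 or more Spp1-list UMIs, the cell with most member counts per gate, or cells with 5 or more Srxn1 UMIs. Promoter sequences are RefSeq's (GRCm38.p6), with all 10 members matched, and gene positions are GENCODE M21's. A gauge of free RNA in the droplets is not reported here.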

Additional observations from a re-analysis of the deposited data

How the results depend on the processing

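Without TMM scaling the median of all genes moved by -0.27 in Spp1-high cells, -0.28 in border macrophages and 0.33 in Müller glia (log2), and the share of calls that were higher was 28.4%, 26.4% and 61.3% instead of 48.8%, 54.0% and 49.1%. Prdx5 in Müller glia lost its call (log2 -0.41 instead of -0.75) and Sod1 in Spp1-high cells gained one (-1.67 instead of -1.38), both moves being about as large as the shift of all genes. Of the 9 tested members 5 were then higher and 1 lower in Spp1-high cells. Thinning to 1000 UMIs, which left fewer genes to test, gave 2 called members instead of 5 in Spp1-high cells and 5 instead of 24 genes of the wider list, 5 instead of 11 in border macrophages and 13 instead of 29 in Müller glia. In microglia it put 2 members instead of 1 at least 1.5-fold apart between the libraries. Without cells that met more than 1 gate, which left fewer cells, 0 instead of 2 members and 2 instead of 11 wider genes were called in border macrophages, and 13 wider genes in Spp1-high cells. Strict gates left 7 wider genes called in border macrophages. Here and above, counts of called genes in an alternative setting are given without the share of all tested genes called in that setting. They therefore do not set the members or the wider list apart. Of the recomputed log2 fold changes between gates, 353 kept their call or stayed within 1 SE, 8 lost it, 9 gained one and 11 moved by more than 1 SE when 1 library was left out, and none of the called ones changed sign. With 1 library alone no residual degree of freedom remains, so counts of calls were not recomputed. Srxn1 in Spp1-high cells lay between 5.32 and 7.91, and Txnrd1 between 2.67 and 3.45, with either library alone. In the fit with no replicate block, where library is left out of the model, 5, 2 and 6 members were called in Spp1-high cells, border macrophages and Müller glia, as in the fit with library as the block, and 22, 10 and 30 wider genes beside 24, 11 and 29. The Srxn1 ratio between libraries in microglia (log2 1.95) was 0.67 without the cell with most member counts, a choice that took the 20 Srxn1 counts of 1 knockout-labelled cell and left the 13 wildtype-labelled counts. That of Prdx1 (0.09) was -0.11 after thinning, and the cause was not tested. Depth limits Sod1, Sod2, Cat, Txnrd1, Srxn1 and Nqo1, which have few counts in some gates.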

Other observations

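Cells outside the 4 gates added 2 patterns, given as values with no test. In the monocyte gate (17 cells in the library labelled knockout and 7 in the library labelled wildtype, marked by Ly6c2, Plac8, S100a4, Ccr2 and Chil3), Gpx1 stood at 2963 and 2815 CPM, and Prdx5 at 1407 and 1564 CPM. In microglia Gpx1 stood at 453.7 CPM (knockout label) and 483.9 CPM (wildtype label) and Prdx5 at 391.9 and 372.4 CPM. Srxn1 and Nqo1 had 0 counts in the monocyte gate of both libraries.

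In the retinal neuron gate (18 cells with the knockout label and 20 cells with the wildtype label, marked by a list of neuronal genes), Gpx4 stood at 1727 and 2180 CPM, above its level in Müller glia of the same library (1195 and 1030 CPM). Sod2 stood there at 246.7 CPM (knockout label) and 253.0 CPM (wildtype label), while Cat, Nqo1 and Srxn1 had 0 counts in both libraries. In lymphocytes (17 cells with the knockout label and 15 cells with the wildtype label) Gpx1 stood at 239.9 and 338.7 CPM and Gpx4 at 329.9 and 254.0 CPM. A cell in no gate of the library labelled knockout held 112 Prdx1 and 50 Hmox1 UMIs among 4255.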
